A study of Rattus norvegicus with 6 samples.

Results

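The 8 S100 genes described here are S100a1, S100a4, S100a6, S100a8, S100a9, S100a10, S100a11 and S100b. Each was read from probe sets whose platform annotation gave that gene symbol alone, and all 8 had exactly 1 such probe set, so no choice between probe sets arose for them. They were 8 of 14218 rat genes with a probe set of their own. For other genes with several probe sets, the one with the highest mean over the 6 arrays was used. Of the 8 members, 6 reached the intensity needed for testing, among 10645 genes tested. S100a8 and S100b did not, and for them an adjusted p is given only from a fit without that filter.

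The arrays measured whole kidney RNA of male Han:SPRD rats, a strain that carries the Cy mutation, a missense change in Anks6 that causes polycystic kidney disease in heterozygotes. Kidneys of heterozygous Cy/+ rats (3 arrays) were compared with kidneys of wild-type +/+ rats (3 arrays). All animals were labelled as 10 weeks old, whereas the methods of the study name a younger age for the arrays. No treatment of these animals is named in the labels used here or in the array methods. Nothing in the labels ties each array to its own rat, so the p-values rest on the spread from array to array, part of which may be technical. A missense change is not read by an expression array, so the expression of Anks6 would not check the genotype labels. All 13 proximal tubule genes measured reached the intensity needed for testing on their mean over the 6 arrays, Slc5a12 mainly through the +/+ arrays. That filter cannot check the tissue of each array.

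S100 proteins are small calcium-binding proteins with a pair of EF-hand loops, found only in vertebrates, that mostly work as dimers. On binding calcium they open a surface that docks onto target proteins such as annexins, myosins and the tumour suppressor p53, and S100a10 is the exception that holds the open form without calcium. Several members, above all S100a8 and S100a9, are also released from cells and act through cell surface receptors such as RAGE and Toll-like receptor 4, and in kidney the family is known from injured tubules, fibroblasts and infiltrating leukocytes.

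The start-site windows of the 3 members with the largest changes among those that had an entry are shown, so that their sequence can be set beside their values. RefSeq (assembly GRCr8) listed a window of 300 bases for 5 members, S100a4, S100a6, S100a9, S100a11 and S100b. Capitals mark a TATA box (TATAAA) in S100a4 and GC boxes (GGGCGG, a site for Sp1-type factors) in S100a6 and S100a11, and the coordinates are chr2:178398287-178398586 for S100a6, chr2:181874882-181875181 for S100a11 and chr2:178388279-178388578 for S100a4, all on the plus strand.
S100a6: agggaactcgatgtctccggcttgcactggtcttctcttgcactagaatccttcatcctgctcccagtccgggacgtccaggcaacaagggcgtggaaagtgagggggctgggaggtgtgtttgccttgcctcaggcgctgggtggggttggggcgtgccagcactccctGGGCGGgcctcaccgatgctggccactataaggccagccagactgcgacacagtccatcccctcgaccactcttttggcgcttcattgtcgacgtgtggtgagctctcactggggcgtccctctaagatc
S100a11: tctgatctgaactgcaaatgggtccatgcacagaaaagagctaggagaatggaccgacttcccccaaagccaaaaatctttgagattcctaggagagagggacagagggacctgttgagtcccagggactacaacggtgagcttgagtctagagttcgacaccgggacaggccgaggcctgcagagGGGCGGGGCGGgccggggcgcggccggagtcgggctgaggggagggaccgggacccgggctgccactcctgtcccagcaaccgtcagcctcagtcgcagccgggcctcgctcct
S100a4: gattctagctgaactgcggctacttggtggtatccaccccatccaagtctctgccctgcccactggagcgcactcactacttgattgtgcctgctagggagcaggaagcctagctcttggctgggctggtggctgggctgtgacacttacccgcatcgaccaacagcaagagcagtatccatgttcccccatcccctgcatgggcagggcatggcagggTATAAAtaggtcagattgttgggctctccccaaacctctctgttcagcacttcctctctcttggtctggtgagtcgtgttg
In S100a4 the TATA box began at -31 from the annotated start, and S100a9, whose window is not printed, held one at -42. S100a6 held 1 GC box at -80 and S100a11 held 2 that overlap, the first at -64. RefSeq lists a further start of S100a6 upstream, which is not shown. On both strands, TATAAA occurs in 14.3% and GGGCGG in 34.9% of the 27457 rat windows of the same length. The AP-1 letters TGANTCA (7.33% of windows), the C/EBP letters TTGCNNAA (10.5%) and the CRE letters TGACGTCA (1.91%) were in none of the 5 windows, and S100b held none of the 5 motifs. A match is a description of letters and says nothing on whether a factor binds there.

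Values below are signals on a linear scale in arbitrary units, and fold changes are Cy/+ over +/+ on the log2 scale from limma, with p-values adjusted by Benjamini-Hochberg over 18625 probe sets. Testing was limited to probe sets at or above the 40th percentile of mean log2 signal, here a signal of 77.8. A group whose mean lay under that signal has only a bound there, and the fold is then given as "at least", the geometric mean of the brighter group over 77.8. The difference between the genotypes was broad: 37.4% of all genes tested were called higher and 29.3% lower in Cy/+ kidneys at an adjusted p under 0.05, and all Cy/+ arrays lay above all +/+ arrays for 41.5% of genes and below them for 33.1%. Arrays of 1 genotype correlated at 0.982 to 0.997 and arrays of different genotypes at 0.907 to 0.940 (Pearson's r across probe sets, which are not independent replicates).

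The hybridization controls, transcripts of bacterial and phage origin spiked into every sample, were brighter on every Cy/+ array for 18 of 18 probe sets, by a median of 1.83-fold. Their mean log2 signal was 11.12 ± 0.21 on Cy/+ arrays and 10.25 ± 0.30 on +/+ arrays (SD, n = 3 each; two-sided exact permutation test p = 0.1, the smallest that 3 against 3 allows). The ratio of 3' to 5' signal of beta-actin, a sign of RNA quality, was 3.22 ± 0.26 on Cy/+ arrays and 1.51 ± 0.0057 on +/+ arrays. Scaling every array to the hybridization controls moved the median log2 fold change of all probe sets tested to -0.82, against 0.05 as deposited, and left 650 genes called higher and 6511 lower. The part of these differences in the values below was not tested. Where such scaling changes the call of a named gene outside the cell type markers, this is said beside it or in a count. For most marker lists only the count under that scaling is given, so the call of a named marker may change unsaid.

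Of the 6 members tested, 5 were called higher in Cy/+ kidneys (S100a4, S100a6, S100a9, S100a10 and S100a11), beside 37.4% of all genes, and S100a1 was called lower, beside 29.3%. Among those 5, S100a9 passed the intensity filter only through its Cy/+ arrays. Scaled to the hybridization controls, 4 were called higher (all but S100a9) and S100a1 lower. In whole kidney RNA, more cells of a type and more RNA per cell cannot be told apart.

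S100a6, known as calcyclin, is an intracellular member that binds annexins and the calcyclin-binding protein. Its signal was 6467, 8652 and 5723 on the Cy/+ arrays, against 647.8, 787.6 and 1029 on the +/+ arrays. The lowest Cy/+ array stood several times above the highest +/+ array. The means were 6947 ± 1522 in Cy/+ and 821 ± 193 in +/+ kidneys (SD, n = 3 each), a difference of 3.08 on the log2 scale (SE 0.21, 95% interval 2.60 to 3.57, limma adjusted p = 4.1e-05) or 8.48-fold. Ranked from the highest, its log2 fold change was number 58 of the 10645 genes tested.

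S100a11, which pairs with annexin A1 at membranes, gave 13240, 12580 and 13050 on the Cy/+ arrays and 2526, 3091 and 3272 on the +/+ arrays. The Cy/+ arrays lay close together, with a coefficient of variation of 2.62%, against 13.1% among the +/+ arrays, and the groups did not overlap. S100a11 averaged 12957 ± 340 in Cy/+ and 2963 ± 389 in +/+ kidneys (SD, n = 3 each). That was 4.40-fold higher in Cy/+ kidneys, or 2.14 on the log2 scale (SE 0.11, 95% interval 1.89 to 2.39, limma adjusted p = 2.15e-05). RefSeq lists copies of S100a11 in the rat genome (S100a11l1, S100a11l2) and a pseudogene of S100a10, and which of these the probe sets also bind was not checked.

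S100a4, also called fibroblast-specific protein, binds non-muscle myosin heavy chains and is used as a marker of fibroblasts, although macrophages express it too. The Cy/+ arrays read 1795, 2144 and 1481, and the +/+ arrays 402.7, 438.6 and 520.6. All 3 Cy/+ values were above all 3 +/+ values. The means of 1807 ± 332 in Cy/+ and 454 ± 60.4 in +/+ kidneys (SD, n = 3 each) gave a log2 fold change of 1.98 (SE 0.16, 95% interval 1.61 to 2.36, limma adjusted p = 6.62e-05), or 3.96-fold.

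S100a10, or p11, forms a tetramer with annexin A2 that carries ion channels to the cell surface and holds plasminogen there. Its signals were 9238, 6874 and 7590 in Cy/+ kidneys and 1910, 2211 and 2085 in +/+ kidneys, again without overlap. It was 3.80-fold higher in Cy/+ kidneys, with means of 7901 ± 1212 in Cy/+ and 2069 ± 151 in +/+ (SD, n = 3 each) and a log2 fold change of 1.92 (SE 0.12, 95% interval 1.64 to 2.21, limma adjusted p = 3.55e-05). The intervals of S100a4, S100a10 and S100a11 overlapped one another, and the interval of S100a6 lay above all 3. No test compared the members with one another, so this does not rank them. Each of the 4 had a fold change above 1.58 on the log2 scale, the 95th percentile of all genes tested.

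**Figure D1:**
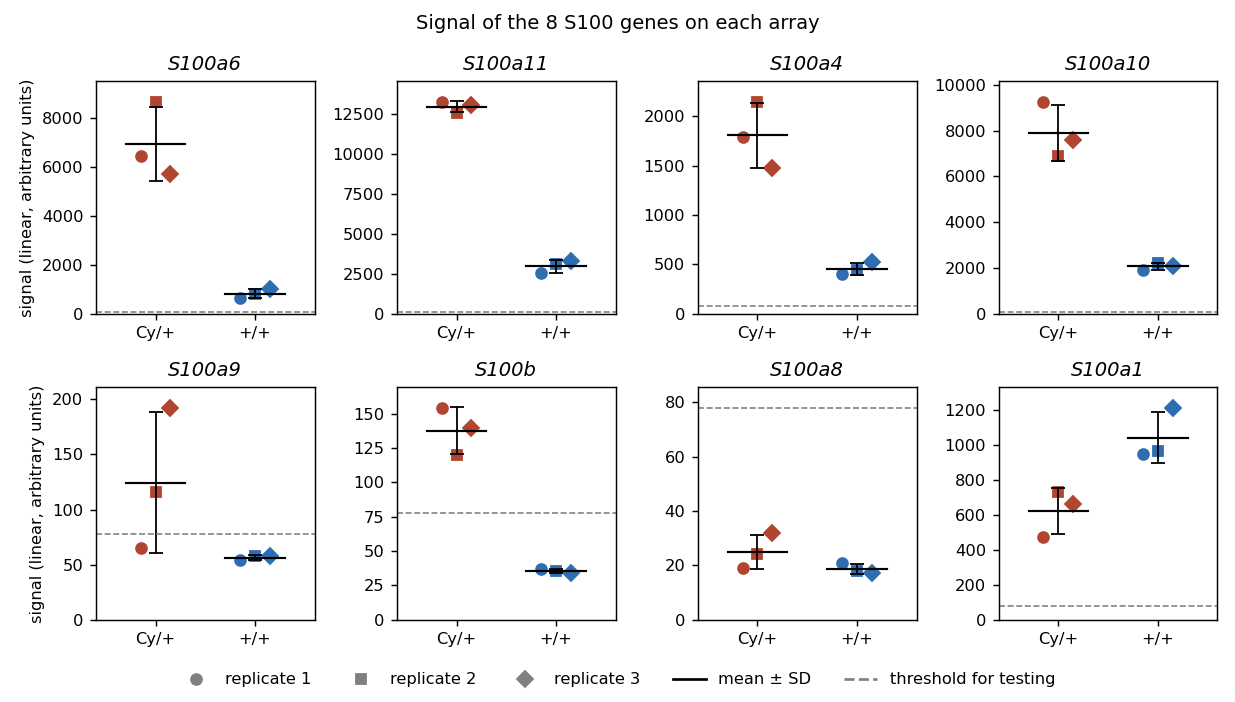
Signal of the 8 S100 genes on each array (linear scale, arbitrary units, each panel with its own axis from 0), Cy/+ left and +/+ right; symbols are replicates, bars are the mean ± SD of 3 arrays, and the dashed line is the signal of 77.8 needed for testing. S100a6, S100a11, S100a4 and S100a10 were separate between the genotypes, S100a9 spread over 65.42 to 191.8 among the Cy/+ arrays, and S100a8 stayed below the line on all 6 arrays.

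S100a1, best known from heart and skeletal muscle where it acts on calcium release and uptake, was the member with lower signal in Cy/+ kidneys. It read 473.5, 731.0 and 663.9 on the Cy/+ arrays and 949.5, 970.0 and 1212 on the +/+ arrays. The groups did not overlap, though the highest Cy/+ array and the lowest +/+ array were closer than for the 4 members above. S100a1 averaged 623 ± 134 in Cy/+ and 1044 ± 146 in +/+ kidneys (SD, n = 3 each), a log2 fold change of -0.76 (SE 0.18, 95% interval -1.18 to -0.34, limma adjusted p = 0.00766). Under scaling to the hybridization controls its log2 fold change was -1.63, beside the median of -0.82 over all probe sets tested.

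S100b, the family member of astrocytes, Schwann cells and adipocytes, was not tested because its mean over the 6 arrays lay below 77.8. It gave 154.0, 119.9 and 139.5 on the Cy/+ arrays and 37.24, 35.59 and 34.36 on the +/+ arrays. Each Cy/+ array was above the signal needed for testing and each +/+ array was below it. S100b averaged 138 ± 17.1 in Cy/+ and 35.7 ± 1.45 in +/+ kidneys (SD, n = 3 each), at least 1.76-fold higher in Cy/+. A fit without the filter gave it an adjusted p of 1.88e-05 (limma), with a measured log2 difference of 1.94.

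S100a8 and S100a9 form calprotectin, the heterodimer that fills the cytosol of neutrophils and is released at sites of inflammation. S100a9 read 65.42, 116.3 and 191.8 on the Cy/+ arrays and 54.0, 57.93 and 57.52 on the +/+ arrays. The Cy/+ arrays differed 2.93-fold among themselves, and the lowest of them was close to the +/+ arrays. With means of 125 ± 63.6 in Cy/+ and 56.5 ± 2.16 in +/+ kidneys (SD, n = 3 each), S100a9 passed the intensity filter only through its Cy/+ arrays and was at least 1.46-fold higher there. Its fitted log2 fold change was 1.01 (SE 0.35, 95% interval 0.19 to 1.83, limma adjusted p = 0.0355), and that call was lost on scaling to the hybridization controls (0.14, adjusted p = 0.684). It was also lost without Cy/+ replicate 2, without Cy/+ replicate 3 or without any 1 of the +/+ arrays (adjusted p = 0.0621 to 0.0921). Without Cy/+ replicate 3 the log2 fold change was 0.63.

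S100a8, its partner, stayed below the signal needed for testing on every array, with 19.13, 24.09 and 31.8 on the Cy/+ arrays and 20.75, 18.06 and 17.15 on the +/+ arrays. The groups overlapped, since Cy/+ replicate 1 lay below +/+ replicate 1. A fit without the filter gave an adjusted p of 0.0865 (limma), and no fold is given because both groups were dim. On the Cy/+ arrays S100a8 and S100a9 had the same order, lowest on replicate 1 and highest on replicate 3.

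**Figure D2:**
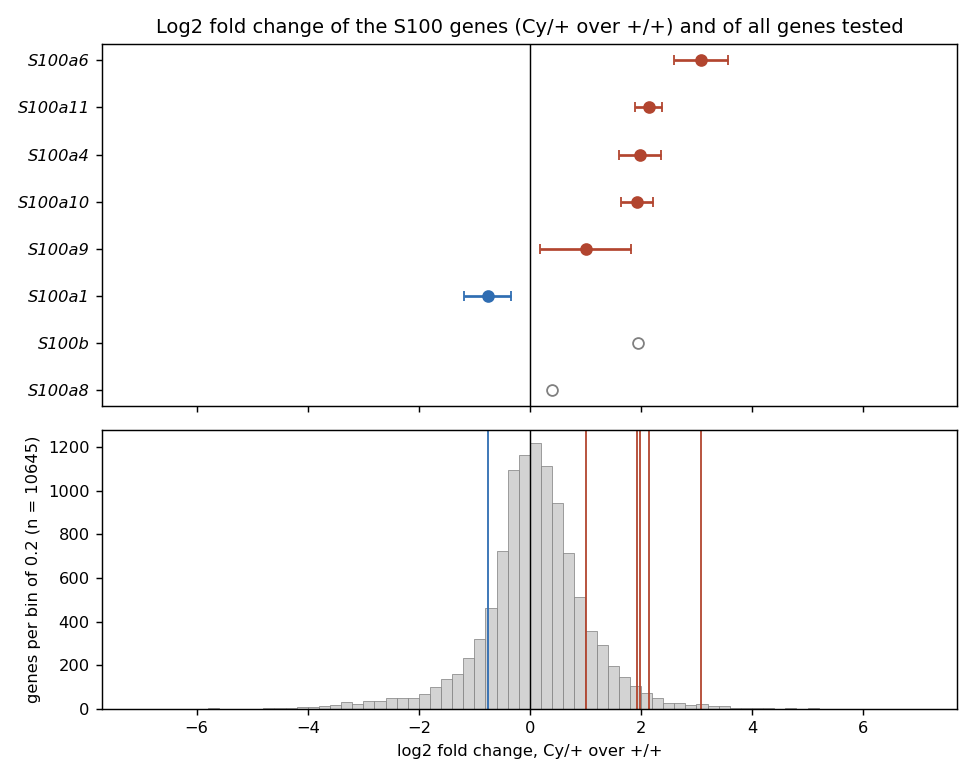
Upper panel, log2 fold change of Cy/+ over +/+ for the 8 S100 genes, with 95% intervals for the 6 tested (red higher, blue lower) and open circles for the measured differences of S100b and S100a8, which were not tested. Lower panel, the number of genes per bin of log2 fold change among the 10645 genes tested, with lines at the 6 tested members; S100a6 lies at 3.08 in the right tail, and on scaling to the hybridization controls S100a9 falls to 0.14. S100a8 was dim in both groups, so its circle is no fold.

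The members did not share 1 order among the Cy/+ arrays. S100a4 and S100a6 were highest on Cy/+ replicate 2, S100a10, S100a11 and S100b on replicate 1, and S100a8 and S100a9 on replicate 3. S100a1 was highest on replicate 2 and lowest on replicate 1. With 3 arrays a group, this is a description of these arrays.

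The change in S100a4, S100a6, S100a10, S100a11 and S100a1 kept its direction and its call under all 18 alternative settings that gave each a fold change, and asking for a 2-fold change as well ended the call of S100a1. Across them the log2 fold change of S100a6 was between 2.21 and 3.26, that of S100a11 between 1.27 and 2.21, that of S100a4 between 1.11 and 2.12, that of S100a10 between 1.05 and 2.05 and that of S100a1 between -1.63 and -0.57. The lower end of the ranges of S100a4, S100a6, S100a10, S100a11 and S100a1 came from scaling to the hybridization controls, which lowers every gene.

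**Figure D3:**
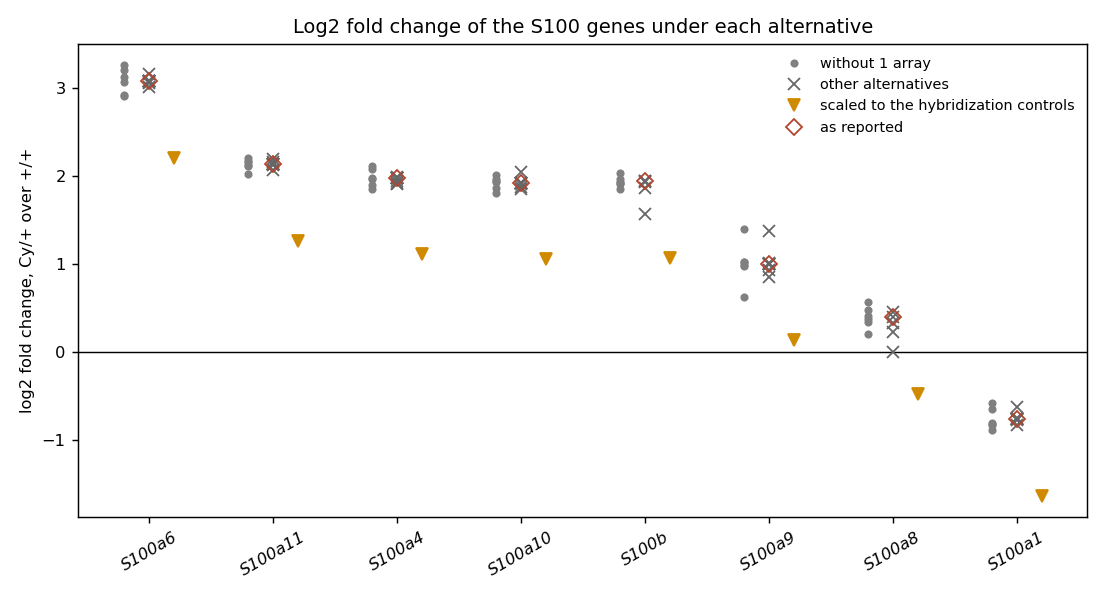
Log2 fold change of Cy/+ over +/+ for the 8 S100 genes as reported (open diamonds), without each array in turn (dots), scaled to the hybridization controls (triangles) and under the other alternatives (crosses). S100a6, S100a11, S100a4 and S100a10 stay above 1 throughout, and S100a9 is at 0.14 on scaling to the hybridization controls; the points of S100b rest on +/+ arrays, and those of S100a8 on both groups, below the signal needed for testing.

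The rest of the family was examined through a list of 17 further S100 and fused S100 genes, including the binding protein gene S100pbp, of which 10 had a probe set and 5 were tested. S100a13, S100a16 and S100pbp were called higher, beside 37.4% of all genes, and S100g lower, beside 29.3%. None of the further genes stayed higher on scaling to the hybridization controls. The median log2 fold change of the 5 was 0.74, beside 0.09 over all genes tested. S100a16 gave 1860, 2600 and 2029 on the Cy/+ arrays and 1074, 1171 and 1148 on the +/+ arrays, without overlap, a log2 fold change of 0.92 (SE 0.13, limma adjusted p = 0.000708). S100a13, which takes part in the export of growth factors that lack a signal peptide, changed by 0.74 (SE 0.15, limma adjusted p = 0.00384).

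S100g, or calbindin-D9k, ferries calcium across the cells of the distal nephron and gut and went the other way. Its signal was 61.26, 61.73 and 59.07 on the Cy/+ arrays and 291.3, 236.0 and 219.7 on the +/+ arrays. Every Cy/+ array was below the signal needed for testing, so S100g was at least 3.18-fold lower in Cy/+ kidneys (limma adjusted p = 3.18e-05). S100a14, an epithelial member, read 59.47, 411.3 and 147.4 on the Cy/+ arrays and 54.8, 57.48 and 68.6 on the +/+ arrays. Its Cy/+ arrays differed 6.92-fold and it did not pass the test (limma adjusted p = 0.0872). With array quality weights, or without Cy/+ replicate 1, it was called higher. A second, dimmer probe set of S100a14 was not tested. It read 44.22, 448.3 and 133.8 on the Cy/+ arrays and 33.71, 35.61 and 36.25 on the +/+ arrays, without overlap. A fit without the filter gave that probe set an adjusted p of 0.0442 (limma).

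Most S100 genes lie together on rat chromosome 2, where RefSeq places 14 of the measured ones, 7 members among them, and S100b lies on chromosome 20. S100a10 and S100a11, next to each other in the order of measured genes, were both higher, at 1.92 and 2.14 on the log2 scale. S100a3 and S100a5 flank S100a4, with S100a5 between it and S100a6, and both were below the signal needed for testing in both groups. S100a3 averaged 65.1 ± 3.54 in Cy/+ and 56.3 ± 6.58 in +/+ kidneys, and S100a5 averaged 32.9 ± 4.84 in Cy/+ and 33.9 ± 2.08 in +/+ kidneys (SD, n = 3 each). S100a1, lower in Cy/+, was the measured gene at the end of the row next to S100a13, which was higher as deposited.

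**Figure D4:**
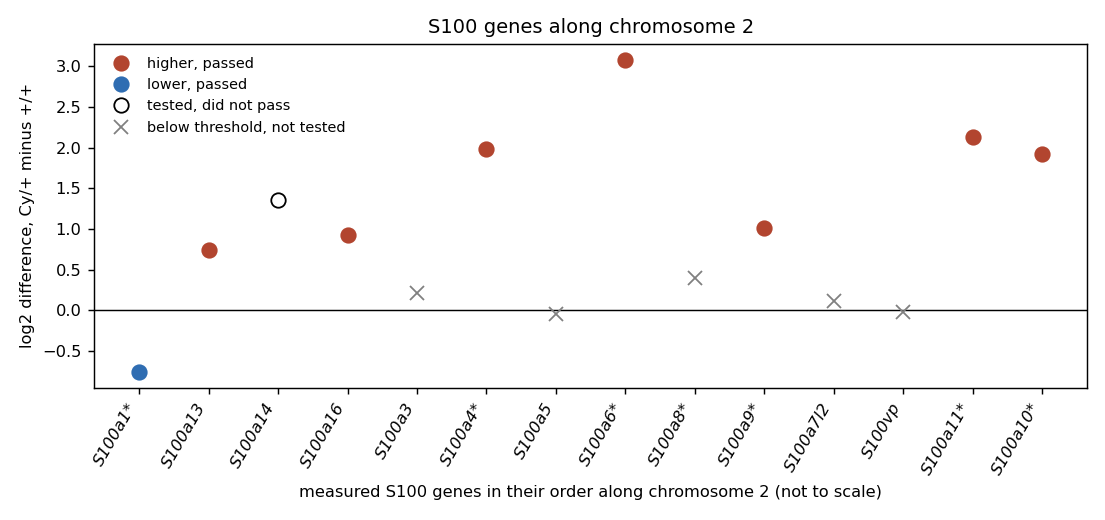
Log2 difference of Cy/+ minus +/+ for the 14 measured S100 genes in their order along rat chromosome 2 (spacing not to scale; asterisks mark the members; red called higher, blue called lower, open circle tested but not passed, crosses below the signal needed for testing). S100a4 and S100a6 stand at 1.98 and 3.08, and the crosses of genes that are dim in both groups carry no fold; on scaling to the hybridization controls the calls of S100a9, S100a13 and S100a16 are lost.

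Proteins that S100 members bind were counted from a list of 28 genes, of which 22 were tested. In Cy/+ kidneys 12 were called higher, 3 lower and 7 did not pass, where 37.4% of all genes were higher and 29.3% lower. The median log2 fold change was 0.24 beside 0.09 over all genes. On scaling to the hybridization controls 3 were higher and 12 lower, where 650 of all 10645 genes were higher and 6511 lower. The annexin partners of S100a10 and S100a11 were among those higher under both. Anxa2, which holds S100a10, gave 8499, 7571 and 6589 on the Cy/+ arrays and 1485, 1732 and 1746 on the +/+ arrays. Its log2 fold change was 2.19 (SE 0.12, limma adjusted p = 2.47e-05), and a second, dim probe set of the gene was below the signal needed for testing. Anxa1, the partner of S100a11, gave 9225, 7703 and 7272 on the Cy/+ arrays and 1664, 1795 and 1945 on the +/+ arrays, a log2 fold change of 2.16 (SE 0.11, limma adjusted p = 2.35e-05). Neither gene overlapped between the genotypes.

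Of the other annexins that S100 proteins bind, Anxa6 had a log2 fold change of 1.22 (limma adjusted p = 6.58e-05), and Anxa11, a partner of S100a6, had one of 0.44 (limma adjusted p = 0.0137). Myh9, the non-muscle myosin heavy chain that S100a4 binds, read 7282, 5104 and 5553 on the Cy/+ arrays and 2262, 1969 and 2246 on the +/+ arrays. The groups were apart and the log2 fold change was 1.46 (SE 0.14, limma adjusted p = 0.000138). Myh14, another non-muscle myosin heavy chain, changed by 1.19 (limma adjusted p = 0.00335) and the tubulin gene Tubb5 by 1.57 (limma adjusted p = 4.01e-05). Of Anxa6, Anxa11, Myh9, Myh14 and Tubb5, all but Tubb5 lost their call on scaling to the hybridization controls, and so did Iqgap1. Iqgap1, a scaffold protein that binds S100b, changed by 1.26 (limma adjusted p = 2.47e-05), and the calcium pump gene Atp2a2, a target of S100a1 in muscle, by -0.53 (limma adjusted p = 0.00544), though a further probe set of Atp2a2 did not pass (limma adjusted p = 0.261).

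The calcyclin-binding protein gene Cacybp did not follow S100a6. It read 967.9, 680.0 and 737.2 on the Cy/+ arrays and 969.3, 1015 and 884.9 on the +/+ arrays, which overlapped (log2 fold change -0.28, limma adjusted p = 0.116), and it was called lower on scaling to the hybridization controls. Its dimmer probe set was lower in Cy/+ (log2 fold change -1.24, limma adjusted p = 0.000156), so the probe sets of Cacybp disagree. Sugt1, another S100a6 partner, changed by 0.40 (limma adjusted p = 0.00402), a call lost on that scaling.

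Channels that S100a10 and annexin A2 bring to the membrane differed among themselves. Trpv6, an epithelial calcium channel, gave 191.5, 332.5 and 280.5 on the Cy/+ arrays and 117.3, 125.1 and 137.7 on the +/+ arrays, with no overlap (log2 fold change 1.05, limma adjusted p = 0.00289). Trpv5, its distal tubule counterpart, had a log2 fold change of -0.24 (limma adjusted p = 0.142) and the potassium channel gene Kcnk3 one of -0.15 (limma adjusted p = 0.132). On scaling to the hybridization controls Trpv6 was no longer called, and Trpv5 and Kcnk3 were called lower. As deposited, Trpv5 and Kcnk3 were near the signal needed for testing, with mean signals of 77.0 in Cy/+ and 90.7 in +/+ kidneys for Trpv5 and 79.2 in Cy/+ and 88.2 in +/+ kidneys for Kcnk3.

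Plasminogen activation, which the complex of S100a10 and annexin A2 is known to raise at cell surfaces, was followed through 8 genes, of which 4 were tested. Serpine2, an inhibitor of plasminogen activators, was called higher (log2 fold change 1.41, limma adjusted p = 0.0227, a call lost on scaling to the hybridization controls) and the plasminogen receptor gene Plgrkt lower (-0.67, limma adjusted p = 0.000992). Plat, the tissue activator, read 2250, 1019 and 1038 on the Cy/+ arrays and 789.1, 837.1 and 785.2 on the +/+ arrays and did not pass (limma adjusted p = 0.0581). Plau, the urokinase gene, had probe sets that disagree. The brighter did not pass as deposited and was called lower on scaling to the hybridization controls, with means of 9067 ± 1428 in Cy/+ and 7946 ± 42.7 in +/+ kidneys (SD, n = 3 each; log2 fold change 0.18, limma adjusted p = 0.198). The dimmer was lower, with means of 2975 in Cy/+ and 4643 in +/+ kidneys (log2 fold change -0.69, limma adjusted p = 0.0264). Of the 4 tested, 1 was called higher and 1 lower, beside 37.4% and 29.3% of all genes. Plaur, Plg and Serpinb2 were not tested for their low mean over the arrays. Of these, Plaur was at least 1.24-fold higher in Cy/+ kidneys, and a fit without the filter called it higher. Its dimmer probe set, Plg and Serpinb2 were dim in both groups. The count of higher genes in this group was between 0 and 3 over the alternatives. The log2 fold changes of the 4 tested genes had a median of 0.46, beside 0.09 over all genes.

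Receptors and co-receptors of secreted S100 proteins were counted from a list of 15 genes, of which 13 were tested. In Cy/+ kidneys 7 were called higher, 2 lower and 4 did not pass, where 37.4% of all genes were higher and 29.3% lower. The median log2 fold change was 0.52 beside 0.09 over all genes. On scaling to the hybridization controls 3 were higher and 5 lower, where 650 of all 10645 genes were higher and 6511 lower. Among the 7, Cd33 passed the filter only through its Cy/+ arrays, and its call was lost on that scaling. The receptor of S100a8 and S100a9 on myeloid cells, Tlr4, gave 179.6, 135.2 and 113.0 on the Cy/+ arrays and 103.4, 93.01 and 96.16 on the +/+ arrays. Its groups did not overlap, and its log2 fold change was 0.52 (SE 0.17, limma adjusted p = 0.0288). The co-receptor Cd14 read 856.4, 813.8 and 691.9 on the Cy/+ arrays and 189.8, 145.4 and 199.3 on the +/+ arrays, 4.44-fold higher (log2 fold change 2.15, SE 0.15, limma adjusted p = 4.36e-05). Ly96, the accessory protein of Tlr4, changed by 0.78 (limma adjusted p = 0.00228). On scaling to the hybridization controls Cd14 was still called higher, and Tlr4 and Ly96 were not.

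Ager, the gene of RAGE, did not pass the test as deposited and was called lower on scaling to the hybridization controls. It read 126.2, 134.6 and 122.2 on the Cy/+ arrays and 118.8, 124.4 and 116.4 on the +/+ arrays, which overlapped (log2 fold change 0.09, 95% interval -0.12 to 0.30, limma adjusted p = 0.394). Among other receptors, the heparan sulphate carrier Sdc1 was higher on each Cy/+ array (702.3, 2274 and 1291, against 179.2, 212.6 and 228.9 on the +/+ arrays). Its log2 fold change was 2.63 (SE 0.38, limma adjusted p = 0.000811). The adhesion molecule gene Alcam had a log2 fold change of 1.91 (limma adjusted p = 0.000659).

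The scavenger receptor gene Cd36, a binder of the S100a8 and S100a9 complex, was lower on each Cy/+ array (176.5, 76.42 and 66.77, against 477.9, 490.6 and 484.2 on the +/+ arrays). Its log2 fold change was -2.33 (SE 0.34, limma adjusted p = 0.000812). Bsg, the gene of the S100a9 receptor basigin, was lower too (-0.64, SE 0.10, limma adjusted p = 0.00103). Mcam, which S100a8 and S100a9 also bind, was 444 ± 121 in Cy/+ and 321 ± 6.82 in +/+ kidneys (SD, n = 3 each; limma adjusted p = 0.0635). A dimmer probe set of Mcam ran the opposite way and did not pass either, with means of 92.8 in Cy/+ and 133 in +/+ kidneys (limma adjusted p = 0.0706).

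**Figure D5:**
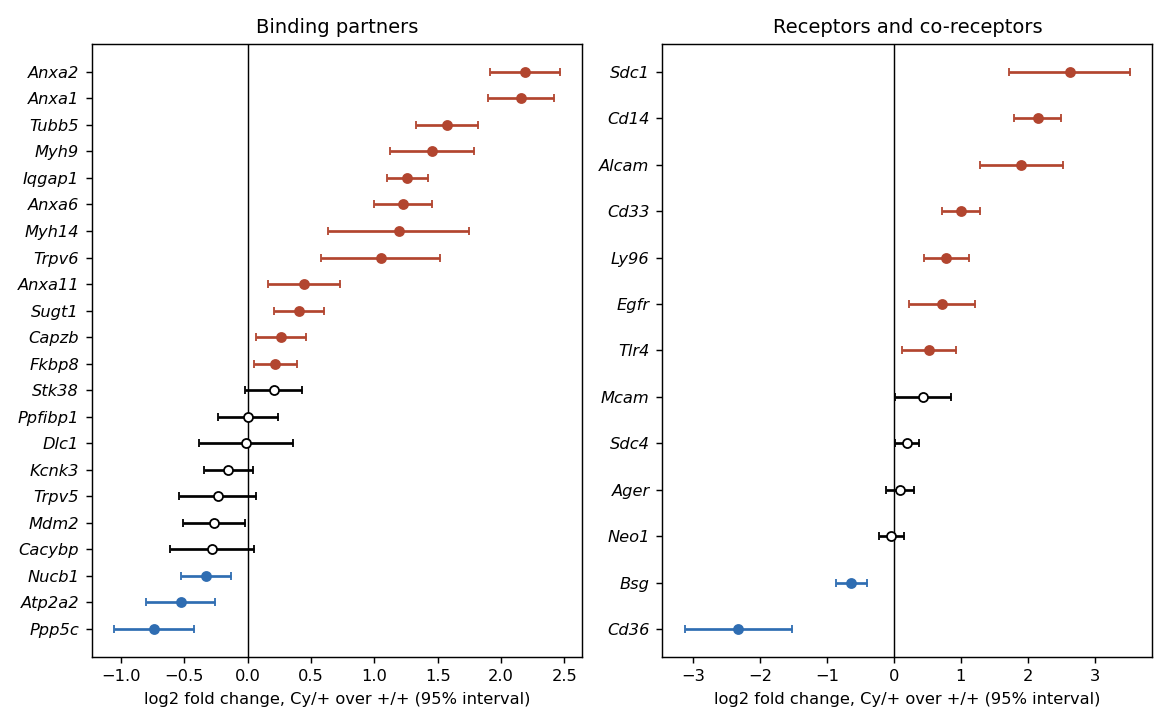
Log2 fold change of Cy/+ over +/+ with 95% intervals for the 22 binding partners and the 13 receptors tested (red called higher, blue called lower, open circles did not pass). Anxa2 and Anxa1 stand at 2.19 and 2.16 in the left panel and Ager at 0.09 in the right one; on scaling to the hybridization controls 3 partners and 3 receptors are called higher and 12 partners and 5 receptors lower.

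Other EF-hand genes, which share the calcium-binding fold, were called higher for 15 and lower for 4 of 26 tested, where 37.4% and 29.3% of all genes were, and on scaling to the hybridization controls 4 were higher and 12 lower. Their median log2 fold change was 0.40, beside 0.09 over all genes. Of those called lower, Hpca passed the filter only through its +/+ arrays. Rcn1, a calcium-binding protein of the endoplasmic reticulum, led those higher (log2 fold change 2.78, limma adjusted p = 1.36e-05), followed by the calpain gene Capn2 (1.56, limma adjusted p = 2.05e-05). Calb1, or calbindin-D28k, was lower, with 794.6, 989.2 and 1141 on the Cy/+ arrays and 4037, 3290 and 3285 on the +/+ arrays (log2 fold change -1.87, limma adjusted p = 7.01e-05). S100g and Calb1 belong to the calcium transport pathway of the distal nephron. There 2 genes were called higher and 6 lower of 10 tested, beside 37.4% and 29.3% of all genes. Of the 6 lower, S100g, Vdr and Kl passed the filter only through their +/+ arrays. With a filter at the 60th percentile 1 was called higher and 3 lower, where 3158 of all 8213 genes were higher and 2471 lower. The median log2 fold change of the 10 was -0.93, beside 0.09 over all genes. None was called higher on scaling to the hybridization controls. The vitamin D receptor gene Vdr was at least 2.47-fold lower (limma adjusted p = 4.28e-05) and the klotho gene Kl at least 3.33-fold lower (limma adjusted p = 2.08e-05) in Cy/+ kidneys.

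Markers of cell types in which S100 members are known were measured beside them, and their part in the S100 values was not tested. All marker counts below stand beside 37.4% of all genes called higher and 29.3% lower. On scaling to the hybridization controls, 650 of all 10645 genes were higher and 6511 lower. Of 9 neutrophil markers measured, 7 had a mean over the 6 arrays below the signal needed for testing (Camp, Csf3r, Cxcr2, Fcnb, Il1r2, Mmp8 and Mmp9). Of these, Fcnb was at least 1.04-fold higher and Mmp9 at least 1.40-fold lower in Cy/+ kidneys, and the others were dim in both groups. The other 2 were called higher, Lyz2 and Itgb2, which macrophages express as well. The summed neutrophil signal was 9388 to 12241 on Cy/+ arrays and 5069 to 5856 on +/+ arrays, most of it Lyz2, and on scaling to the hybridization controls none was called.

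Macrophage markers, which include the receptor gene Cd14 above, were called higher for 13 of 14 tested, or 3 higher and 1 lower on scaling to the hybridization controls, and Cd163 was below the signal needed for testing. Of those called higher, Mrc1 passed the filter only through its Cy/+ arrays. The summed macrophage signal was 23260 to 31608 on Cy/+ arrays and 13182 to 14550 on +/+ arrays. Cd74 was the largest part, with 13080, 12030 and 11200 on the Cy/+ arrays and 7487, 7770 and 8358 on the +/+ arrays. It was not called on scaling to the hybridization controls. Lymphocyte markers were called higher for 6 of 7 tested, or 5 higher and 1 lower on scaling to the hybridization controls. Of those called higher, Cd3e, Cd3d and Cd3g had +/+ means below the signal needed for testing and passed the filter only through Cy/+ arrays. The lymphocyte sums were 1834 to 3312 on Cy/+ arrays and 956 to 1055 on +/+ arrays. A further 5 were not tested for their low mean over the 6 arrays. Of these, Cd5 was at least 1.59-fold higher and Cd8a at least 1.01-fold higher in Cy/+. Fibroblast and myofibroblast markers were called higher for 9 of 11 tested, or 6 on scaling to the hybridization controls. Their sums were 28680 to 52274 on Cy/+ arrays and 9741 to 11496 on +/+ arrays. Acta2 and Dcn did not pass, and Fap, Lum and Postn were not tested for their low mean over the 6 arrays. Of these, Postn read 359.2, 128.4 and 182.4 on the Cy/+ arrays and was at least 2.61-fold higher there, Lum was at least 1.42-fold higher, and Fap was dim in both groups.

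For S100b, Schwann and glial markers were called higher for 3 of 5 tested (Cnp, Mbp and Pmp22, of which a dimmer Pmp22 probe set did not pass, limma adjusted p = 0.758), or 1 higher and 2 lower on scaling to the hybridization controls. Their sums were 3225 to 3801 on Cy/+ arrays and 1330 to 1490 on +/+ arrays. The lineage factor Sox10 averaged 78.7 ± 6.83 in Cy/+ and 91.5 ± 5.76 in +/+ kidneys (SD, n = 3 each) and did not pass (limma adjusted p = 0.106), Prx did not pass either, and Gap43, Gfap and Ngfr were below the signal needed for testing. Adipocyte markers were called higher for 1 (Lpl) and lower for 3 (Cd36, Cidec and Fabp4) of 6 tested, or 0 higher and 4 lower on scaling to the hybridization controls. Fabp4 passed the filter only through its +/+ arrays. The adipocyte sums were 1652 to 2246 on Cy/+ arrays and 2051 to 2334 on +/+ arrays. For S100a1, 9 of 10 striated muscle markers were below the signal needed for testing, and Des, the other one, was called higher as deposited but not on scaling to the hybridization controls.

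Among epithelial markers, those of the proximal tubule were called lower for 13 of 13, with sums of 17402 to 44966 on Cy/+ arrays and 126470 to 131640 on +/+ arrays. Those of tubular injury were called higher for 15 of 15 tested, with sums of 67272 to 75205 on Cy/+ arrays and 9531 to 11569 on +/+ arrays. Of these, Tnc passed the filter only through its Cy/+ arrays. Lgals3 is counted among the macrophage markers as well, and Vim among the fibroblast markers. On scaling to the hybridization controls the proximal tubule count was 13 lower and the injury count 13 higher. Other epithelial lists were mixed as deposited. Thick ascending limb and distal convoluted tubule markers were called higher for 3 and lower for 3 of 9 tested. Collecting duct markers were called higher for 1 and lower for 1 of 11 tested, and podocyte markers higher for 2 and lower for 3 of 5. Synpo was counted higher by its brightest probe set (log2 fold change 0.56, limma adjusted p = 0.0166). Its dimmer probe sets were lower (-0.81, limma adjusted p = 0.00118, and -1.22, limma adjusted p = 0.00129), so the probe sets of Synpo disagree.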

How the data were processed

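Kidney RNA was hybridized to Affymetrix rat expression arrays (6 arrays). The deposited values are linear MAS5 signal intensities that the authors made from the array images (GCOS software, per the methods); their scaling target, detection calls and the scaling between arrays are not given in the sources used here. Depth does not apply, and the number of arrays limits the precision. They were taken to log2 with no pseudocount. Probe sets below the 40th percentile of mean log2 signal (6.28) and 57 control probe sets were left out, and the other 18625 were tested with limma 3.58.1 (R 4.3.3) with an intensity trend and Benjamini-Hochberg adjustment. The fit was checked on simulated data that had the +/+ spread in both groups. That check does not cover the wider spread among the Cy/+ arrays. Genes were named by the platform annotation, with symbols updated through RefSeq, and the 436 probe sets given several symbols stayed out. Members and gene lists were chosen with earlier results of these data known. Named genes were the members, up to 4 called higher and 4 lower per list by smallest adjusted p, the products that members bind, and genes of counts of 5 or fewer; further marker and neighbouring genes were named after their values were seen. Same-numbered arrays were not treated as pairs (correlations of deviations 0.147, -0.110 and -0.151). Alternatives changed scaling, floor, filter, test, probe set choice, thresholds and arrays.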

Additional observations from a re-analysis of the deposited data

Results flagged for a closer look

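The hybridization controls, which belong to no comparison of kidney genes, were a median of 1.83-fold brighter on Cy/+ arrays than on +/+ arrays. S100b, left out of the test for its low mean over the 6 arrays, had a mean signal of 138 on Cy/+ arrays, above the signal needed for testing, against 35.7 on +/+ arrays.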

How the results depend on the processing

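Scaling to the hybridization controls changed most. Under it the log2 fold change of S100a9 was 0.14 and the log2 difference of S100b, measured against dim +/+ arrays, was 1.07, while that of S100a8, dim in both groups and no fold, was -0.47; 0 other family genes were called higher; 3 binding partners were higher and 12 lower; and 3 receptors were higher and 5 lower. Of all calls, 9.08% were then higher, against 56.1% as deposited. Asking for a 2-fold change as well left 0 members lower, 0 other family genes higher, 0 partners lower, and 4 receptors higher and 1 lower; over all genes it called 1341 higher and 1033 lower, against 3983 and 3117. A filter at the 60th percentile left 0 other family genes lower, since S100g was not tested. Centring on the median, array quality weights, or the mean of the probe sets of a gene each called 5 partners lower. With a floor of 32 the difference of S100a8 was 0, and with a pseudocount of 16 that of S100b was 1.57. S100a9 kept its log2 fold change of 1.01 but not its call under the methods' t-test (adjusted p = 0.121, unadjusted p = 0.0887), which called 3944 genes higher and 3135 lower at the methods' threshold and 3584 and 2875 after Benjamini-Hochberg adjustment. Leaving out 1 array at a time gave S100a9 a log2 fold change of 0.63 to 1.40, called only without Cy/+ replicate 1, and 2 to 5 partners lower. S100a4, S100a6, S100a10, S100a11 and S100a1 kept direction and call under each of the 18 alternatives that refit their fold change or its p, and S100a1 lost its call only to the 2-fold condition. With the replicate number as a block, 3750 genes were higher and 2845 lower; all 6 member calls were kept, with adjusted p = 0.000379 for S100a6 and 0.0237 for S100a9. The cause of these changes was not tested. S100a8 was far below 77.8 on all arrays, S100a9 lay around it, and S100b was below it on the +/+ arrays; detection calls were not used here.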
